A study of Mus musculus with 6 samples.

Results

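Levels of 10 interferon-inducible GTPase genes were followed in injured mouse livers with and without Arid1a in hepatocytes. The genes were taken by name, as Tgtp1, Tgtp2, Iigp1, Igtp, Irgm1, Irgm2, Gbp2, Gbp3, Gbp4 and Gbp6, and all 10 were found among the 14499 genes of the authors' table, each in a single row. Rows were to be selected on the highest mean FPKM where a name had several, and no name did, so this value decided nothing. The names themselves were chosen with earlier results of these data known, and the comparison of genotypes is given with that limit. Total liver RNA was sequenced from 3 libraries of Arid1a_KO_DDC, knockout livers in which Arid1a was deleted in hepatocytes, and from 3 libraries of WT_DDC, wild-type livers. Arid1a encodes a subunit of the BAF chromatin remodelling complex. Strain (C57Bl/6; 129Sv), age (postnatal week 10) and injury (2 weeks of DDC, a porphyrinogenic compound) were shared by both groups. The driver of the deletion is not named in the labels. Nor do they tie libraries to individual mice, so the spread that p-values are set against is that of libraries and may be technical.

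The immunity-related GTPases (IRG) and the guanylate-binding proteins (GBP) are cytosolic GTPases that mouse cells make in large amounts after interferon-gamma. The cytokine acts through its receptor and the kinases Jak1 and Jak2 on promoters with GAS elements, and it induces Irf1, a factor that binds interferon-stimulated response elements (ISRE). Type I interferons act on the ISRE and reach some of the same promoters. In mouse cells the GKS class of IRG proteins, here Tgtp1, Tgtp2 and Iigp1, loads onto the vacuoles of parasites such as Toxoplasma and breaks them. The GMS class, here Igtp, Irgm1 and Irgm2, sits on the cell's own membranes and keeps GKS proteins inactive there. GBP proteins are larger GTPases that coat pathogen vacuoles and bacteria and take part in inflammasome activation.

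Promoter sequences from RefSeq (build GRCm38.p6, 250 bases before to 50 after each start) were matched for 7 of the 10 genes, with none for Iigp1, Gbp4 and Gbp6. They are shown because 2 elements of the interferon response stand side by side in 4 of them. The ISRE was searched as GAAANNGAAA on both strands and the GAS element as TTCNNNGAA, which reads the same on both strands. An ISRE was found for 7 of these 7 genes, against 3.44% of all 32851 windows of this length, and a GAS for 4 of 7, against 8.3% of all windows. In Tgtp1, Tgtp2, Igtp and Irgm2 the GAS was followed by the ISRE with 2 bases between them. This joined pattern, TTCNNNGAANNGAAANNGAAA on either strand, was found in 5 windows of all 32851 (0.0152%), those 4 and Gm12185. Its spacing was set from these 4 windows, so their own matches were fixed in advance and are no test of enrichment. Nor are the 4 independent. The windows of Igtp and Irgm2 were identical in 247 of 271 aligned columns (91.1%), and Tgtp1 and Tgtp2 are near copies as well. Capitals mark the GAS and then the ISRE in the 4 windows below, each written in the direction of its gene. They are chr11:48992304-48992344 (minus strand) for Tgtp1, chr11:49064263-49064303 (minus) for Tgtp2, chr11:58199501-58199541 (plus) for Igtp and chr11:58214892-58214932 (plus) for Irgm2.
Tgtp1: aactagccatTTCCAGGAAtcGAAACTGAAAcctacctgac
Tgtp2: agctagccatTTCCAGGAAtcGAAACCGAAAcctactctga
Igtp: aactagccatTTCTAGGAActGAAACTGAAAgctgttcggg
Irgm2: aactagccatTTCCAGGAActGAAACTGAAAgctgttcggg

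The other 3 promoters held an ISRE and no GAS in the window, and they are shown for contrast with the joined pattern. Capitals mark 1 ISRE in each. Irgm1 (chr11:48871431-48871460, minus strand) and Gbp3 (chr3:142559989-142560018, plus strand) each hold a second ISRE that overlaps the one marked. In Gbp2 (chr3:142620594-142620623, plus strand) and Gbp3 the element lies on the other strand, so it reads TTTCNNTTTC. Gbp3 has a further start whose window held neither element. These matches are descriptions of letters and not of bound sites.
Irgm1: cctgtttcaaGAAATAGAAAccgaaactga
Gbp2: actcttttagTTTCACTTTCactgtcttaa
Gbp3: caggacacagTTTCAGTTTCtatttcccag

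Tgtp1 and Tgtp2 are near copies, and their whole windows are given because Tgtp1 alone of the 10 genes passed the test below. The window of Tgtp1 is chr11:48992197-48992496 and that of Tgtp2 chr11:49064163-49064462, both on the minus strand and written in the direction of the gene. Capitals mark the GAS and the ISRE. In the best local alignment 148 of 162 columns were identical (91.4%), and this stretch holds both elements.
Tgtp1: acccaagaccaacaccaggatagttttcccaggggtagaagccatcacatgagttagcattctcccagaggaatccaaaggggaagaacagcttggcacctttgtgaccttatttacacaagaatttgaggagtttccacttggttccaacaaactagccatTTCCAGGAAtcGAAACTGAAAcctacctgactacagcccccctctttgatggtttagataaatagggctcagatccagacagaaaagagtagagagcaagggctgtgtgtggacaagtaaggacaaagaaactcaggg
Tgtp2: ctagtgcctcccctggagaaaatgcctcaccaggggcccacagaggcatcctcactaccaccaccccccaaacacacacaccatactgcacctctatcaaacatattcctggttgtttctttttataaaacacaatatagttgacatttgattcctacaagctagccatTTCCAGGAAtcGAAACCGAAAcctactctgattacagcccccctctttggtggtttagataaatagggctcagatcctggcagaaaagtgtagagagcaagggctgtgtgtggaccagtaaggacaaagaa

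The genes lie in a few clusters, given here from GENCODE M21 on GRCm38, and all are protein coding. Irgm1 (ENSMUSG00000046879, 48861968 to 48871683), Tgtp1 (ENSMUSG00000078922, 48985327 to 48994172) and Tgtp2 (ENSMUSG00000078921, 49057194 to 49064206) are neighbours on the minus strand of chromosome 11. Igtp (ENSMUSG00000078853, 58199556 to 58207591) and Irgm2 (ENSMUSG00000069874, 58199618 to 58222782) lie further along chromosome 11 on the plus strand, and their annotated spans overlap. Gbp3 (ENSMUSG00000028268, 142560026 to 142573209) and Gbp2 (ENSMUSG00000028270, 142620602 to 142638008) are on chromosome 3. Gbp4 (ENSMUSG00000079363, 105115767 to 105139586) and Gbp6 (ENSMUSG00000104713, 105270702 to 105293698) are on chromosome 5, and Iigp1 (ENSMUSG00000054072, 60376027 to 60392634) is on chromosome 18. How far each gene can be told from its relatives was measured as the share of 50-base words of its longest transcript that also occur in transcripts of another gene. It was 91.4% for Tgtp1, mostly shared with Tgtp2, and 90.6% for Tgtp2. It was 59.7% for Gbp6, shared mainly with Gm43302 and Gbp10, and 12.8% for Gbp4. Igtp shared 12.3% of its words with Irgm2, and the remaining 5 genes shared between 0% and 7.36%. FPKM of Tgtp1, Tgtp2 and Gbp6 singly are therefore uncertain. The annotated span of Gbp4 also overlaps those of Gbp8 (105014150 to 105139540) and Gbp9 (105077630 to 105139539). How reads were divided among these 3 genes was not examined.

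Library quality and labels were checked first. Between 11280 and 11695 genes per knockout library and between 11658 and 11712 per wild-type library had at least 1 FPKM (fragments per kilobase of transcript, scaled to the mapped fragments), and absolute depth is unknown. The hepatocyte genes Alb, Apoa1 and Ttr were at 4307 FPKM or higher in every library. Arid1a was at 6.61, 5.01 and 3.81 FPKM in knockout replicates 1, 2 and 3, against 7.85, 5.48 and 5.98 FPKM in wild type, so the groups overlapped. A gene-level value that also covers other cells and exons outside a deletion does not check the labels. Library identifiers fall into L0566 and L0567, which are replicate 1 of both genotypes, and L0602 to L0605. The Y-linked gene Ddx3y was at 0.0227 and 0.0527 FPKM in replicate 1 of knockout and wild type, and between 9.27 and 11.3 FPKM in replicates 2 and 3. Its level follows the library sets, so library set and sex of the mice cannot be told apart. Mitochondrially encoded genes made up 46.9%, 40.3% and 40.7% of summed FPKM in the knockout libraries and 17.4%, 51.8% and 44.7% in wild-type replicates 1, 2 and 3. Scaling factors by median of ratios lay between 0.98 and 1.01.

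Tgtp1 transcripts were far lower in knockout livers, and none of the other 9 GTPases passed the test, though their mean differences were negative. Of the 10 members 1 fell (Tgtp1) and 0 rose past the threshold, an adjusted p under 0.05 in limma's moderated test over all 11839 genes tested. Over all those genes, 0.49% passed in either direction, 0.355% lower and 0.135% higher in knockout. All 10 members passed the filter of 1 FPKM in at least 3 libraries, but Tgtp2 and Gbp4 passed it with 1 knockout library and 3 wild-type libraries, so their place in the comparison rested on the wild type. The log2 difference, knockout minus wild type on the log2(FPKM + 1) scale, was below 0 for 10 of 10 members, against 49.4% of all genes. Its median was -0.68, against 0.0034 over all genes, and lay between -0.83 and -0.49 with 1 library left out. It was -0.36 in libraries L0602 to L0605 alone. In 5 of the 10 members every knockout library lay below every wild-type library, against 9.56% of all genes tested, and Tgtp2 and Gbp4 are 2 of these 5. In total liver RNA, fewer cells of a type and less RNA per cell cannot be told apart.

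**Figure D1:**
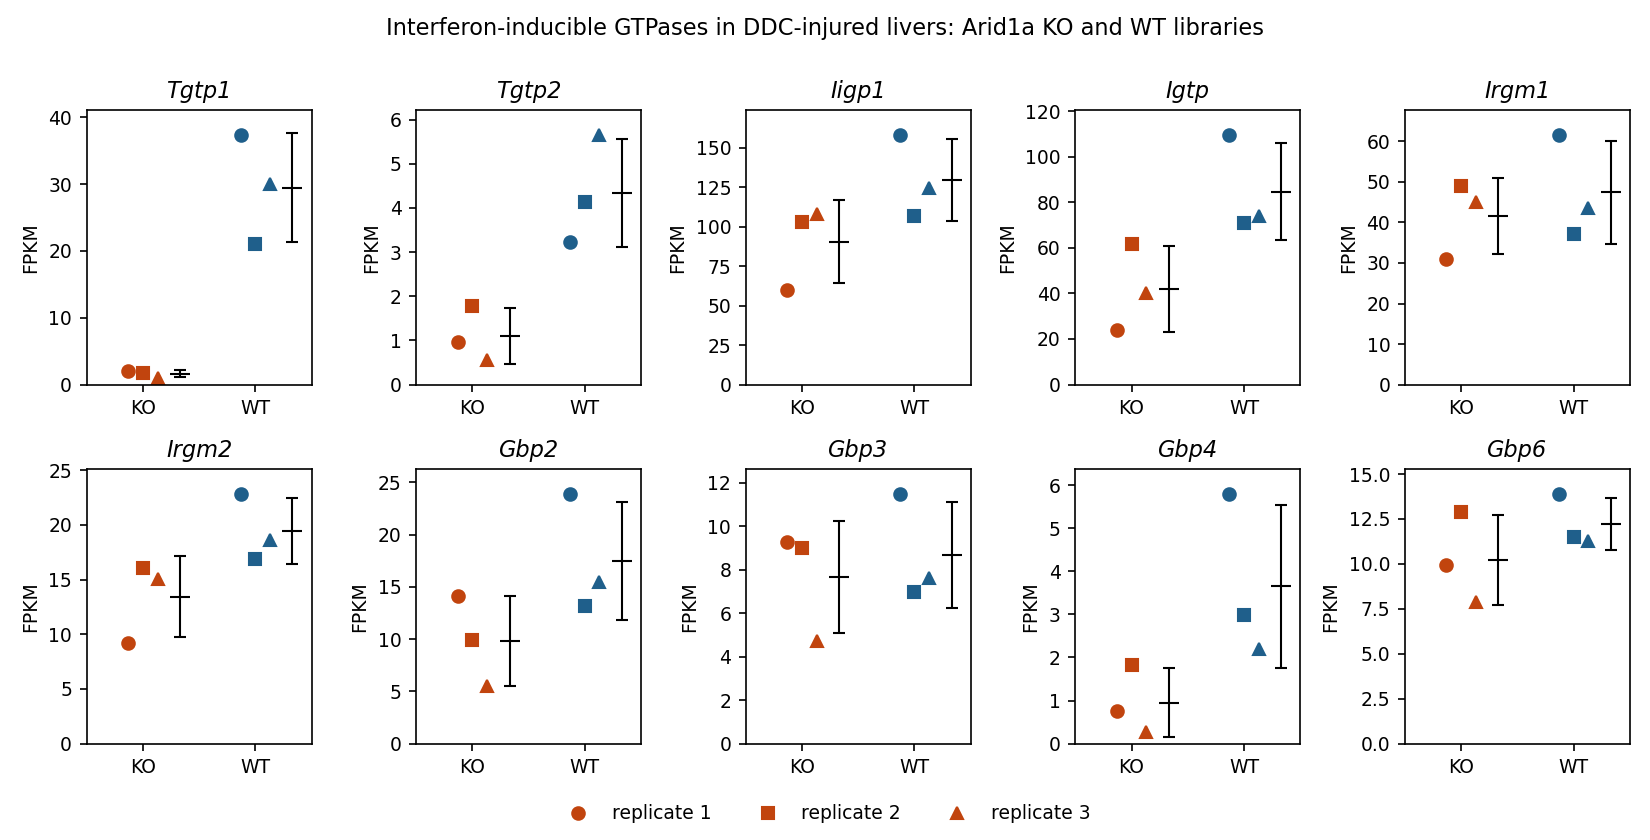
FPKM of the 10 GTPase genes (y axes, each from 0) in 3 knockout (KO) and 3 wild-type (WT) libraries, with a symbol for each replicate number and, beside the points, the mean with bars of 1 SD. Tgtp1 stood at 1.06 to 2.07 FPKM in knockout and 21.1 to 37.3 FPKM in wild type. The points of Iigp1, Irgm1, Gbp2, Gbp3 and Gbp6 overlapped between the genotypes.

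Tgtp1, a GKS-class effector, was at 2.07, 1.74 and 1.06 FPKM in the knockout libraries, against 37.3, 21.1 and 29.97 FPKM in wild type. The lowest wild-type library was above 10 times the highest knockout library. On the log2 scale knockout minus wild type came to -3.52 (SE 0.25, limma adjusted p = 0.0128). With 1 library left out the difference stayed between -3.73 and -3.34, but the adjusted p was 0.0795 without Arid1a_KO_DDC replicate 3 and 0.0617 without WT_DDC replicate 3. Its neighbour Tgtp2 was at 0.954, 1.79 and 0.545 FPKM in knockout and at 3.23, 4.14 and 5.65 FPKM in wild type. These groups also lay apart, yet the difference of -1.37 (SE 0.27) did not pass over all genes (limma adjusted p = 0.118). A pseudocount of 5 in place of 1 made it -0.61.

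Because the reads of this pair are hard to assign, their FPKM were also summed. The sum was 3.03, 3.53 and 1.601 FPKM in knockout and 40.5, 25.2 and 35.6 FPKM in wild type, averaging 2.72 ± 0.9998 and 33.8 ± 7.80 FPKM (SD, n = 3 libraries each; exact two-sided permutation p = 0.1, the smallest this design allows). The knockout mean was 0.0804 of the wild-type mean, and the low level of the pair therefore does not rest on how reads were split. Tgtp1 held 68.5%, 49.4% and 65.9% of the sum in knockout, against 92.0%, 83.6% and 84.2% in wild type (exact permutation p = 0.1), a share that does rest on that split.

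**Figure D2:**
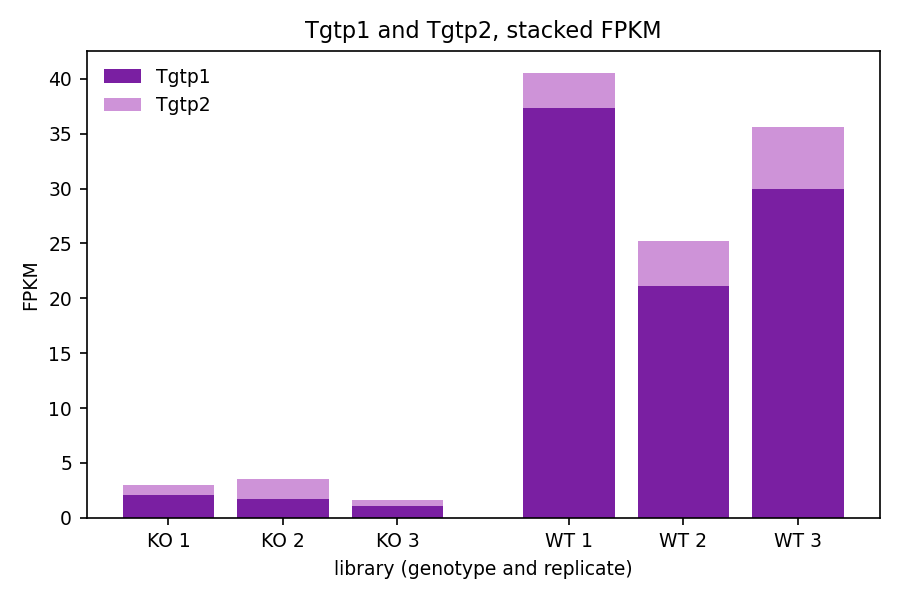
Stacked FPKM of Tgtp1 and Tgtp2 (y axis, from 0) in each library, knockout (KO) and then wild type (WT) with the replicate number. The 3 knockout bars reach 1.601 to 3.53 FPKM and the 3 wild-type bars 25.2 to 40.5 FPKM, with Tgtp1 as the larger part of each wild-type bar.

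Iigp1, the third GKS-class member and the one with the highest mean FPKM of all 10 in both genotypes, did not share this depth of difference. It was at 60.2, 103 and 108 FPKM in knockout and at 158, 107 and 124 FPKM in wild type. Knockout replicate 3 lay just above wild-type replicate 2, so the groups overlapped. On the log2 scale the genotypes differed by -0.55 (SE 0.26, limma adjusted p = 0.5), and most of it came from replicate 1.

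Of the GMS-class regulators, Igtp had the largest difference. Igtp was at 24.1, 61.5 and 40.1 FPKM in knockout and at 109, 71.0 and 73.8 FPKM in wild type, with groups that did not overlap. The difference of -1.07 (SE 0.35) did not pass over all genes (limma adjusted p = 0.315). Irgm2 was at 9.22, 16.1 and 15.0 FPKM in knockout and at 22.8, 16.9 and 18.6 FPKM in wild type (difference -0.53, SE 0.23, limma adjusted p = 0.469). Its groups lay apart by less than 1 FPKM. Irgm1 was at 31.1, 48.9 and 45.0 FPKM in knockout and at 61.5, 37.1 and 43.6 FPKM in wild type. Its groups overlapped (difference -0.18, SE 0.25, limma adjusted p = 0.834), and its sign turned to 0.02 without Arid1a_KO_DDC replicate 1 and to 0.02 without WT_DDC replicate 1.

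Among the guanylate-binding proteins Gbp4 and Gbp2 had the larger differences. Gbp4 was at 0.749, 1.83 and 0.268 FPKM in knockout and at 5.79, 2.98 and 2.20 FPKM in wild type. The groups did not overlap, though the difference of -1.26 (SE 0.38, limma adjusted p = 0.287) was -0.53 with a pseudocount of 5 and -2.04 with 0.1. Gbp2 was at 14.1, 9.95 and 5.53 FPKM in knockout and at 23.9, 13.2 and 15.4 FPKM in wild type (difference -0.81, SE 0.35, limma adjusted p = 0.457). Knockout replicate 1 lay above wild-type replicate 2, so these groups overlapped. Without Arid1a_KO_DDC replicate 3 the difference of Gbp2 was -0.48.

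Gbp3 and Gbp6 lay close together in both genotypes. Gbp3 was at 9.26, 9.02 and 4.70 FPKM in knockout and at 11.5, 6.96 and 7.63 FPKM in wild type, with a difference of -0.18 (SE 0.29, limma adjusted p = 0.852). Its sign turned to 0.09 without Arid1a_KO_DDC replicate 3 and to 0.01 without WT_DDC replicate 1. Gbp6 was at 9.92, 12.9 and 7.91 FPKM in knockout and at 13.9, 11.5 and 11.3 FPKM in wild type, with a difference of -0.25 (SE 0.19, limma adjusted p = 0.688). It was -0.10 without Arid1a_KO_DDC replicate 3. In both genes knockout and wild-type libraries overlapped.

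The order of the levels, as mean FPKM, differed between the genotypes at Tgtp1, and Gbp6 and Gbp2 also changed places. In knockout livers Iigp1 (90.4 FPKM) came before Igtp (41.9) and Irgm1 (41.7), then Irgm2 (13.4), Gbp6 (10.2), Gbp2 (9.87) and Gbp3 (7.66), and last Tgtp1 (1.62), Tgtp2 (1.095) and Gbp4 (0.95). Neighbours in this order had overlapping ranges except Irgm1 and Irgm2, and Gbp3 and Tgtp1. In wild type Iigp1 (130 FPKM), Igtp (84.7) and Irgm1 (47.4) were followed by Tgtp1 (29.5), Irgm2 (19.4), Gbp2 (17.5), Gbp6 (12.2), Gbp3 (8.68), Tgtp2 (4.34) and Gbp4 (3.65). There the ranges of neighbours lay apart between Igtp and Irgm1 and between Gbp3 and Tgtp2, and overlapped elsewhere. Tgtp1 was thus in 8th place in knockout and in 4th place in wild type.

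The members mostly shared their highest wild-type library, while their order among the knockout libraries varied. In 9 of 10 members wild-type replicate 1 was the highest of all 6 libraries, Tgtp2 being the exception. Among the knockout libraries replicate 2 was the highest in 6 members, and replicate 3 the lowest in 6 and replicate 1 in 4. The shares of all genes with these orders were not counted. The summed FPKM of the 10 members was 162, 267 and 228 in knockout replicates 1, 2 and 3 and 447, 292 and 333 in wild type. Wild-type replicate 1 is also the library with the lowest mitochondrial share, and median-of-ratios scaling changed no member's difference by more than 0.01. The part of that share in the result was not tested further.

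Knockout minus wild-type differences were also read within each library set, and those of Iigp1, Igtp, Irgm1, Irgm2 and Gbp4 lay furthest apart. Since Ddx3y differs between the same sets, library set and sex cannot be told apart in these values. For Tgtp1 it was -3.64 in replicate 1 (1 library per genotype) and -3.46 in replicates 2 and 3. For Tgtp2 the values were -1.11 and -1.49, and for Gbp2 -0.72 and -0.85. Igtp had -2.14 in replicate 1 and -0.53 in replicates 2 and 3, Iigp1 -1.38 and -0.13, and Irgm2 -1.22 and -0.18. Irgm1 changed sign, with -0.96 and 0.22. Gbp4 had -1.96 and -0.91, Gbp6 -0.45 and -0.15, and Gbp3 -0.28 and -0.13. The difference between the sets, fitted as an interaction in limma, did not pass for any member (adjusted p of 0.413 to 0.954), and it called 0 of all genes with 1072 at an unadjusted p under 0.05. In replicates 2 and 3 alone, limma called Tgtp1 (adjusted p = 0.0362) and no other member.

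**Figure D3:**
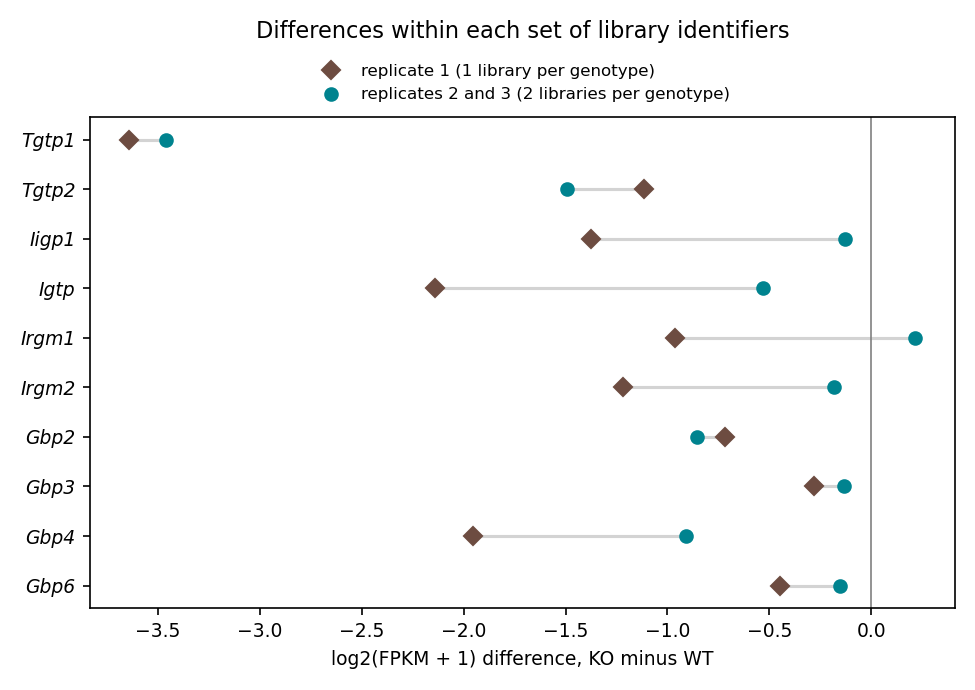
Knockout minus wild-type difference in log2(FPKM + 1) (x axis) for each GTPase gene, computed within replicate 1 (diamonds, libraries L0566 and L0567) and within replicates 2 and 3 (circles, libraries L0602 to L0605). Both marks of Tgtp1 lie near -3.5, those of Igtp lie apart at -2.14 and -0.53, and those of Irgm1 lie on either side of 0.

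Other genes of the same families gave no call, though only 0.49% of all genes passed in either direction. Of 10 further IRG and GBP genes tested 0 passed in limma and 8 were negative, with a median of -0.65 (49.4% of all genes were negative). In 6 of them the groups lay apart with the knockout lower, against 9.56% of all genes. Of these 6, Gbp2b and Gbp5 reached 1 FPKM in 1 knockout library and 3 wild-type libraries, so their place in the comparison rested on the wild type. Ifi47, a GKS-class IRG gene next to Tgtp2, was at 12.5, 12.9 and 10.1 FPKM in knockout and 34.6, 23.5 and 21.96 FPKM in wild type (difference -1.09, SE 0.20, limma adjusted p = 0.102). Gbp2b was at 0.624, 1.54 and 0.447 FPKM in knockout and 3.67, 2.91 and 3.48 FPKM in wild type (-1.26, limma adjusted p = 0.104). Gbp8 was at 3.47, 6.20 and 2.54 FPKM in knockout and 13.1, 9.16 and 10.8 FPKM in wild type (-1.30, limma adjusted p = 0.14). In all 3 genes every knockout library lay below every wild-type library. The exceptions in sign were Gm4951 (0.06) and Gbp11 (0.01), whose groups overlapped. With 1 library left out these ranged from -0.2895 to 0.4600 and from -0.3656 to 0.5434.

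Mx1 and Mx2, dynamin-like antiviral GTPases that answer mainly to type I and type III interferon, had positive differences. Mx2 was at 7.74, 22.9 and 23.4 FPKM in knockout and at 4.58, 3.83 and 3.32 FPKM in wild type, with groups apart (difference 1.82, SE 0.40, limma adjusted p = 0.15). Mx1 was at 2.43, 4.59 and 2.57 FPKM in knockout and 1.70, 0.616 and 0.950 FPKM in wild type (1.002, limma adjusted p = 0.245). Neither passed over all genes. Mx1 reached 1 FPKM in 3 knockout libraries and 1 wild-type library, so its place in the comparison rested on the knockout.

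**Figure D4:**
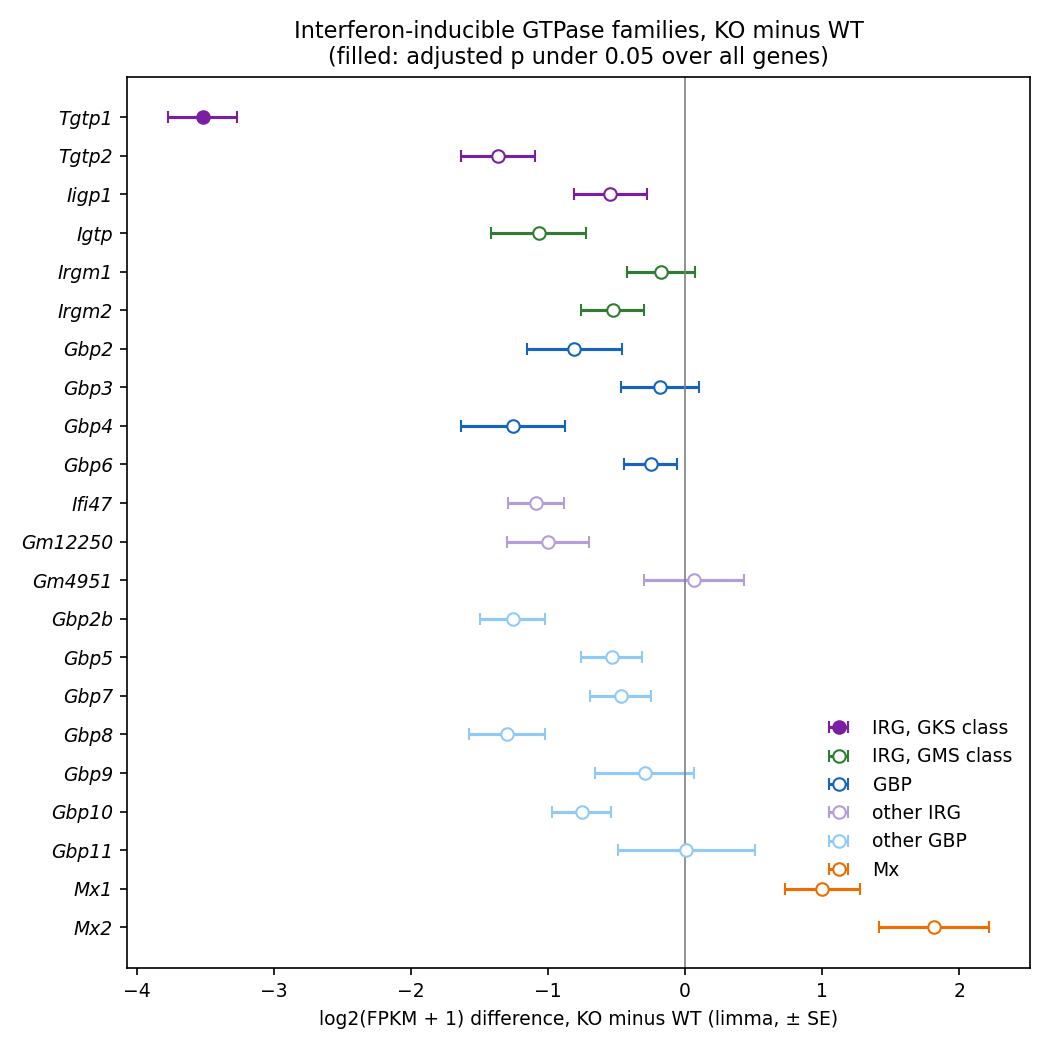
Knockout minus wild-type difference in log2(FPKM + 1) with limma SE (x axis) for the 10 GTPase genes, for further IRG and GBP genes and for Mx1 and Mx2, coloured by family. Filled points have an adjusted p under 0.05 over all genes. Tgtp1 at -3.52 is the filled point, most IRG and GBP genes lie left of 0, and Mx1 and Mx2 lie at 1.002 and 1.82.

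Genes that carry the interferon-gamma signal were mostly lower in knockout livers, and none passed over all genes. Of all genes tested, 49.4% were negative and 0.49% passed in either direction. Of 15 tested members of the list, 12 were negative with a median of -0.38, 0 passed in limma and 7 had groups apart with the knockout lower, against 9.56% of all genes. Of these 7, Socs1, Ciita and Batf2 had at most 1 knockout library and 3 wild-type libraries at 1 FPKM, and without them 4 of 12 had groups apart. The receptor chain Ifngr1 was at 14.5, 16.9 and 16.8 FPKM in knockout and at 27.2, 32.3 and 34.4 FPKM in wild type (difference -0.92, SE 0.15, limma adjusted p = 0.0659). Irf1 was at 15.3, 20.4 and 17.8 FPKM in knockout and at 35.3, 30.1 and 32.2 FPKM in wild type (-0.84, SE 0.15, limma adjusted p = 0.0944). Each had every knockout library at or below 20.4 FPKM and every wild-type library above 27 FPKM. The feedback inhibitors Socs1 and Socs3 had differences of -0.94 and -0.73 (limma adjusted p = 0.157 and 0.283). Levels of Ifng itself were not analysed here.

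Other genes that interferon-gamma induces included 6 that fell and 0 that rose among 31 tested, against 0.355% and 0.135% of all genes. They were Cd74 (difference -2.25), H2-Eb1 (-2.32), H2-Aa (-1.88) and H2-DMa (-1.90), all of MHC class II presentation, Cxcl9 (-1.96), a T cell chemokine, and Cybb (-1.63), the phagocyte NADPH oxidase subunit, with limma adjusted p of 0.0214 to 0.0364. The list had a median of -0.55, with 28 of 31 negative, and 18 had groups apart with the knockout lower, against 9.56% of all genes. Ubd, a ubiquitin-like modifier, did not pass at 18.3, 31.7 and 24.2 FPKM in knockout and 58.4, 129 and 95.4 FPKM in wild type (-1.85, limma adjusted p = 0.0864). The list's count was 2 without WT_DDC replicate 1. It was 0 when Arid1a_KO_DDC replicate 3 was left out, and also for WT_DDC replicate 2 or WT_DDC replicate 3.

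Type I interferon-stimulated genes lay on the other side of 0. Of 29 tested 5 rose and 0 fell, against 0.135% and 0.355% of all genes, 29 of 29 were positive with a median of 1.03, and 21 had groups apart with the knockout higher, against 7.09% of all genes. The 5 were Isg15, a ubiquitin-like modifier, at 85.0, 127 and 70.6 FPKM in knockout and 17.4, 17.6 and 21.5 FPKM in wild type (difference 2.22), Ifit1 (2.04), Oas1a (1.92), Ifit3 (1.71) and Ifi44 (1.70), with limma adjusted p of 0.0214 to 0.0453. With 1 library left out, limma called 0 to 3 genes of the list, and 0 when that library was Arid1a_KO_DDC replicate 3, WT_DDC replicate 2 or WT_DDC replicate 3. The calls were 1 without WT_DDC replicate 1, 2 without Arid1a_KO_DDC replicate 2 and 3 without Arid1a_KO_DDC replicate 1. An ISRE of the form printed above stood in 14 of 23 of these genes with a promoter window (60.9%) and in 4 of 23 of the other interferon-gamma targets (17.4%), and a GAS in 21.7% and 17.4%.

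**Figure D5:**
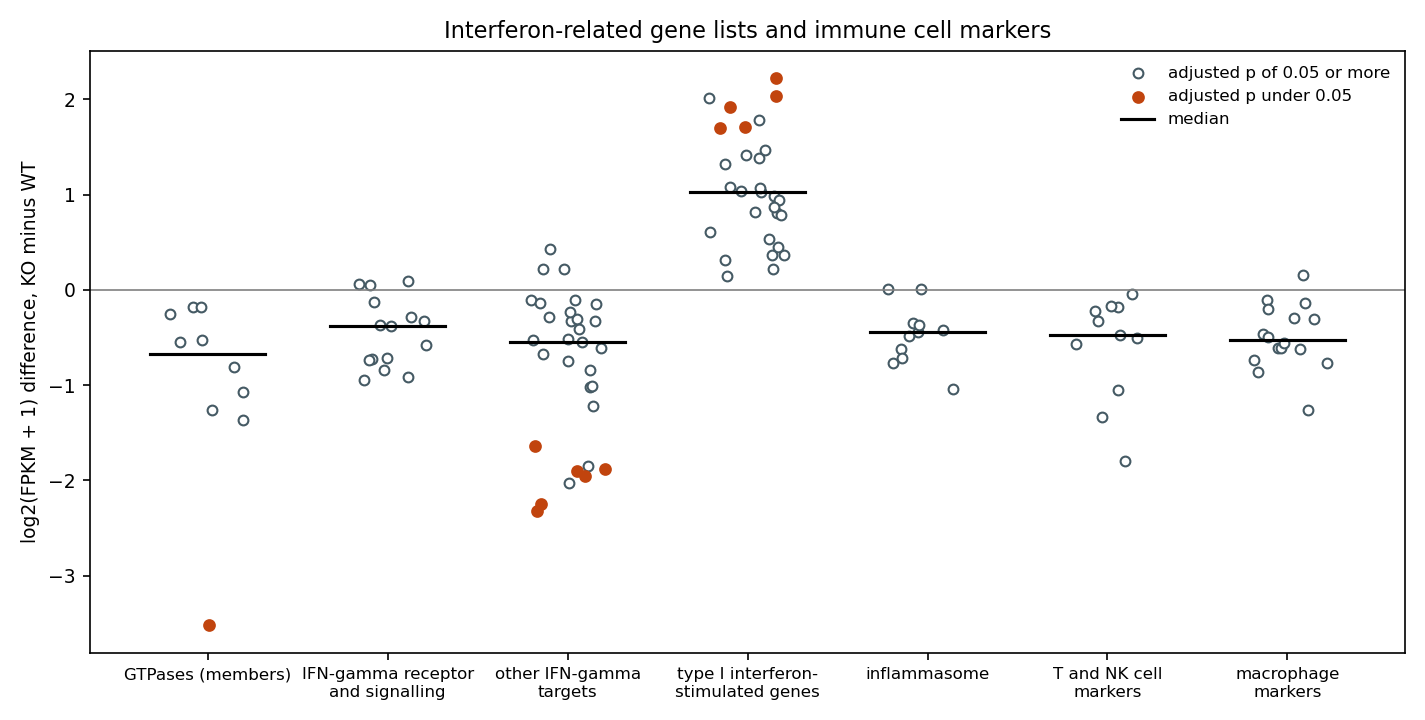
Knockout minus wild-type difference in log2(FPKM + 1) (y axis) for each tested gene of 7 lists, with the list median as a line. Filled points have a limma adjusted p under 0.05 over all genes, and sideways spread within a list only separates points. Medians are -0.68 for the GTPases, -0.55 for other interferon-gamma targets and 1.03 for type I interferon-stimulated genes.

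Markers of cells that make or answer interferon-gamma mostly had negative differences as well. Of all genes tested, 49.4% were negative and 0.49% passed in either direction. The 11 tested T and NK cell markers were negative in 11 of 11 with a median of -0.47 (-0.74 to -0.24 with 1 library left out), and 0 passed in limma. Of these 11, Cd4, Lck and Klrd1 had 1 knockout library and 3 wild-type libraries at 1 FPKM. Over all 16 of the markers in the table, with no filter, 15 were negative and Gzmb was positive. Summed FPKM over the 16 of these markers in the table was 12.6, 33.8 and 9.34 in knockout replicates 1, 2 and 3 and 31.6, 43.0 and 33.3 in wild type. Trac was listed at 0 in knockout replicate 3, and Cd3e, Cd8a, Cd8b1, Gzmb and Cxcr3 were under the filter. Macrophage and monocyte markers were negative in 15 of 16 with a median of -0.53, and their sums were 726 to 1131 FPKM in knockout and 1198 to 1548 FPKM in wild type. Dendritic cell marker sums were 8.02 to 11.8 FPKM in knockout and 16.8 to 18.9 FPKM in wild type, and endothelial sums overlapped at 57.4 to 126 FPKM in knockout and 94.3 to 153 FPKM in wild type. No marker was listed at 0 in every library, and the part of these cells in the GTPase levels was not tested.

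Genes with profiles most like the GTPases were sought among 6958 others with a mean of at least 5 FPKM, by the root mean square difference of centred log2(FPKM + 1) values over the 6 libraries. For the median profile of the 10 members, whose own root mean square was 0.44, those most like it included Akr1b10 (0.10), Pld4 (0.13), Rogdi (0.13) and Nudt14 (0.15). For Tgtp1, whose own was 1.78, the 5 most like it were Calml4 (0.56), Hamp2 (0.59), Igkv6-32 (0.60), Cib3 (0.61) and Slc13a3 (0.63). Among the members themselves, Tgtp1 was farthest from the median profile (1.44), and the other 9 lay between 0.20 and 0.47 from it.

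The chromosomal neighbours of the GTPases were read within 100 kb of the clusters on chromosomes 3, 5 and 11. Among 28 tested genes there, 18 were IRG or GBP genes, of which 17 were negative and 11 had groups apart with the knockout lower, against 9.56% of all genes. Of these 11, Tgtp2, Gbp4, Gbp2b and Gbp5 had 1 knockout library and 3 wild-type libraries at 1 FPKM, so their place rested on the wild type. These 18 genes are members and relatives already counted above, so the counts add no separate evidence. Of the 10 other genes 4 were negative and 1 had groups apart, the predicted gene Gm43802 (difference -1.31). Its mean was 0.393 FPKM in knockout and 2.465 FPKM in wild type, so its place also rested on the wild type. Gm43802 (142547882 to 142548518) lies inside the annotated span of Gbp7 (142530342 to 142550149), so it is not a clean contrast to the families.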

How the data were processed

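Total liver RNA was sequenced from 3 Arid1a_KO_DDC and 3 WT_DDC libraries, grouped by their titles. The authors deposited a single table of log2 FPKM for 14499 genes. Tools named by the submitters' processing notes are TopHat2 2.0.6 and Cufflinks, and the builds mm10 and GRCm38. For what each served, and which annotation was used, the sources used here give nothing. An offset of 0.000977 was removed from the deposited values to recover FPKM (after this 100% of 60069 values between 1 and 50 were numbers of 6 significant digits, relative tolerance 3e-08). A value of 0 can be a failed estimate. Depth is unknown, so no counting intervals are given.

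Values were taken to log2(FPKM + 1), which understates changes of genes with low FPKM. Genes with at least 1 FPKM in at least 3 libraries (11839) entered limma 3.58.1 (R 4.3.3), two-sided and with a trend on expression, and p-values were adjusted by Benjamini-Hochberg over the whole set, at a threshold of 0.05. Errors are limma standard errors, or SD over 3 libraries. The summed Tgtp1 and Tgtp2 FPKM had an exact permutation test (scipy 1.17.1). The members and the lists were chosen with earlier results of these data known, and are described by counts and medians. All 10 members were named; of each list, genes past the threshold and up to 4 others with the smallest p could be named, and further ones (Mx1, Gm4951, Gbp11 and chromosomal neighbours) were chosen after their values were seen. Of the listed genes and those most like the members, 1 is not reported here. Neighbours are genes of the table within 100 kb, by GENCODE M21. Motifs were searched in RefSeq promoter windows, and windows were aligned with Biopython 1.88. Alternatives were median-of-ratios scaling, pseudocounts of 0.1 and 5, filtering at 5 FPKM or not at all, no trend, a replicate block, a library number term, libraries L0602 to L0605 alone and leaving out each library. Figures were drawn with matplotlib 3.10.9.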

Additional observations from a re-analysis of the deposited data

Results flagged for a closer look

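Replicate 1 was set beside replicates 2 and 3 in the 10 members and in 47 other genes. In 4 of them the sets moved in opposite directions, with groups that did not overlap in replicates 2 and 3. With so few libraries this can arise without any difference between the sets, and its share over all genes was not counted. Replicate 1 has 1 library per genotype, and the difference between the sets was tested as an interaction in limma. For Irgm1 the knockout minus wild-type difference was -0.96 in replicate 1 and 0.22 in replicates 2 and 3, with an interaction of -1.18 (limma adjusted p = 0.417). For Gbp11 the differences were -1.70 and 0.86, with an interaction of -2.565 (limma adjusted p = 0.335). For Il15ra, a receptor chain for interleukin 15, they were -0.45 and 0.37, with an interaction of -0.82 (limma adjusted p = 0.56). For Il10rb, a receptor chain shared by interleukin 10 and type III interferon, they were 0.10 and -0.62, with an interaction of 0.72 (limma adjusted p = 0.642).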

How the results depend on the processing

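The fall of Tgtp1 kept its direction under all 15 alternatives, between -4.11 (pseudocount of 0.1) and -2.35 (pseudocount of 5), and the call was lost in 3 of them. The count of members past the threshold was 1, ranged from 0 to 1 with 1 library left out, and was 0 with the replicate block, where the adjusted p of Tgtp1 was 0.0537. Replicate numbers were not taken to pair the samples, since correlations of deviations from the group means were 0.346, 0.133 and 0.0212 for numbers 1, 2 and 3 and the last is under 0.1; number 1 also marks a shared library set. The replicate block called 0 genes in limma, with 1718 at an unadjusted p under 0.05, so 0 genes lower, 0 higher, 0 other interferon-gamma targets and 0 type I genes. The summed Tgtp1 and Tgtp2 difference was -31.1 FPKM, also under the replicate block (exact p = 0.25), and -35.4 to -27.7 FPKM with 1 library left out.

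Over all genes, 42 were lower and 16 higher in knockout. With no filter these were 7 and 5. The library number term gave 59 lower and 33 higher, and libraries L0602 to L0605 alone gave 37 lower and 26 higher. With 1 library left out, 0 to 40 were lower and 0 to 30 higher; without Arid1a_KO_DDC replicate 3 limma called 0, with 918 at an unadjusted p under 0.05. Other interferon-gamma targets past the threshold were 0 with no filter and 1 in L0602 to L0605 alone, and 0 to 6 with 1 library left out. Type I genes past it were 0 with no filter and 1 in L0602 to L0605 alone, and 0 to 3 with 1 library left out. The cause of these changes was not tested, beyond fewer libraries or more genes entering the fit.

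Irgm1 reversed to 0.22 in L0602 to L0605 alone. With 1 library left out, Irgm1 ranged from -0.3337 to 0.0240, Gbp3 from -0.3289 to 0.0948, Il15 from -0.9627 to 0.0841, Il15ra from -0.0974 to 0.2990, Gbp11 from -0.3656 to 0.5434 and Gm4951 from -0.2895 to 0.4600. Gbp11 was -0.0275 with a pseudocount of 5. Tgtp2 and Gbp4 had no value with the filter at 5 FPKM. Depth is unknown, and values under 1 FPKM carry the least certain differences.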

Other observations

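Genes of the machinery around the GTPases gave no call. Over all genes tested, 0.49% passed in either direction and 49.4% were negative. With so low a share, 0 calls in a short list says little. Of 16 tested genes of vacuole targeting and autophagy conjugation, which directs IRG and GBP proteins to vacuoles, 11 were negative and 5 positive with a median of -0.05, and 0 passed in limma. Atg16l1, part of the conjugation complex, was at 11.6, 9.01 and 9.94 FPKM in knockout and 8.66, 7.93 and 8.13 FPKM in wild type (difference 0.27, limma adjusted p = 0.539). Of 11 tested inflammasome and pyroptosis genes 9 were negative with a median of -0.44, and 0 passed. That median is the value of Nlrp3, which had 0 knockout libraries and 3 wild-type libraries at 1 FPKM, so its place rested on the wild type. Casp1 was at 1.21, 1.56 and 1.15 FPKM in knockout and 2.86, 2.51 and 3.45 FPKM in wild type, with groups apart (-0.77, limma adjusted p = 0.136), and Gsdmd, the pore-forming protein, was at 19.4, 18.98 and 20.2 FPKM in knockout and 25.0, 30.1 and 24.7 FPKM in wild type (-0.42, limma adjusted p = 0.305).

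Receptors and sensors of type I and type III interferon had a median of -0.23 over 9 tested genes. Of these 0 passed in limma, against 0.49% of all genes in either direction. Genes listed around the induction of interferon-gamma had a median of -0.44 over 4 tested, Il18, Il15, Il15ra and Il18bp. This median was -0.66 to -0.05 with 1 library left out and -0.15 in L0602 to L0605 alone. Il18bp is a binding protein for interleukin 18 and not itself an inducer. It was at 20.4, 22.2 and 18.8 FPKM in knockout and 40.2, 22.8 and 27.9 FPKM in wild type (difference -0.51, limma adjusted p = 0.451). Summed B and plasma cell markers were at 25.5, 7704 and 28.2 FPKM in knockout replicates 1, 2 and 3 and at 1543, 4113 and 5527 FPKM in wild type. Igkc made up most of the sum in every library, at 17.6, 7538 and 22.5 FPKM in knockout and 1478, 4001 and 5412 FPKM in wild type. Jchain also ranged widely (0.442 to 122 FPKM), but Ighm (2.91 to 13.3 FPKM) and Cd79b (0.541 to 3.51 FPKM) did so far less. The sum is therefore mainly that of 1 transcript and no measure of B cells. Knockout replicate 2, where this sum was high, was also the knockout library with the highest level of 6 of the 10 GTPases. The share of all genes highest in that library was not counted, and a link between the sum and the GTPases was not tested. Of the 7 tested B and plasma cell markers, Cd79a, Jchain and Mzb1 had 1 knockout library and 3 wild-type libraries at 1 FPKM. The median over these 7 was -0.45 (-1.08 to -0.38 with 1 library left out). The same values were -0.80 (-1.04 to -0.50) over 3 neutrophil markers, -0.61 (-0.99 to -0.30) over 9 biliary markers, -0.40 (-0.51 to -0.27) over 11 stellate markers and 0.07 (-0.17 to 0.21) over 14 hepatocyte markers. Of these lists, biliary markers had 2 calls in limma, both lower in knockout (Cldn4 and Krt23), against 0.355% of all genes, and the others 0. Krt23, and Pdgfra among the stellate markers, had 1 knockout library and 3 wild-type libraries at 1 FPKM. Their place in the comparison therefore rested on the wild type. With 1 library left out, the limma adjusted p reached 0.157 for Cldn4 and 0.175 for Krt23.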
